A study of Homo sapiens with 10 samples.

Results

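The circadian clock genes PER1, PER2, PER3, CRY1, CRY2, NR1D1, NR1D2, DBP, BHLHE40 and BMAL1 (formerly ARNTL) were followed through merbarone treatment of human hTERT RPE-1 cells. They were taken by name as core clock genes, with earlier results of these data known, and make up 10 of the 20327 genes in each table. All 10 were found by Ensembl identifier. All 10 passed the filter on low values, set on the mean over the libraries compared, in every comparison. hTERT RPE-1 is a wild-type line from retinal pigment epithelium immortalised with telomerase. Every group, controls included, was first starved for 48 h in medium holding 0.1% serum. Merbarone, a catalytic inhibitor of topoisomerase II, was given at 200 µM. The 30 min experiment set 3 merbarone libraries against 3 libraries of cells given DMSO, the vehicle, for 30 min. The 2 h experiment set 2 merbarone libraries against 2 libraries of untreated cells, which had received no vehicle. The labels do not say whether replicates were separate cultures, so p-values measure the spread between these libraries, which may be technical, and they give no time of day.

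In the clock, CLOCK and BMAL1 pair to activate genes through E-boxes in DNA, and the PER and CRY proteins made from those genes return to the nucleus and inhibit the pair. A second loop runs through NR1D1 and NR1D2 (REV-ERB alpha and beta), which repress BMAL1, while DBP activates genes through D-boxes and BHLHE40 (DEC1) represses through E-boxes. Clocks run in most cells of the body, cultured ones included, and PER1 also responds within hours to outside stimuli through cyclic AMP signalling (CREB) and glucocorticoids.

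Of the members, PER1, CRY2, NR1D1 and BHLHE40 rose at 2 h, and their promoters are shown to place the known control elements against the starts of these genes. Each is the 250 bases before the most upstream start in the RefSeq table (GRCh38.p14), 5′ to 3′ on the gene's strand, placed in GRCh37 by exact match. Capitals mark the motifs found on either strand: the E-box CACGTG, the TGACG core of the cyclic AMP response element (contained in the full element TGACGTCA), the D-box TTATGNAA, and the ROR and NR1D element core TAGGTCA. The BHLHE40 stretch is chr3:5020872-5021121, that of PER1 is chr17:8055723-8055972, that of NR1D1 is chr17:38256843-38257092 and that of CRY2 is chr11:45868419-45868668, with PER1 and NR1D1 on the minus strand. The PER1 stretch lies inside the annotated PER1 interval (chr17:8043790-8059824), whose gene model begins farther upstream than the RefSeq start.
BHLHE40: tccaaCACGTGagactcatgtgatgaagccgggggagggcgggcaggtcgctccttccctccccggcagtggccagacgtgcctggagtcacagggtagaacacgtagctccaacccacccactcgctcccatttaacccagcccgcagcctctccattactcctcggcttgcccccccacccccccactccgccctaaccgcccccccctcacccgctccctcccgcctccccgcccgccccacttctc
PER1: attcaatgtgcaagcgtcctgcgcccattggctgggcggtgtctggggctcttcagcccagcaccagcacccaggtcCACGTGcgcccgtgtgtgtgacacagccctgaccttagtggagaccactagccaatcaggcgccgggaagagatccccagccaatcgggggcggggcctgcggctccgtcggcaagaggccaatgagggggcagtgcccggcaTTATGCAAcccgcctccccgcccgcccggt
NR1D1: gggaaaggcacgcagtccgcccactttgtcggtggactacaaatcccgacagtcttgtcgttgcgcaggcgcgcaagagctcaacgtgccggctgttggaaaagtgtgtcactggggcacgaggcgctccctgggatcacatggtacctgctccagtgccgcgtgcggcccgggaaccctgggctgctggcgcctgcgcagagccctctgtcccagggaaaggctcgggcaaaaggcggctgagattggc
CRY2: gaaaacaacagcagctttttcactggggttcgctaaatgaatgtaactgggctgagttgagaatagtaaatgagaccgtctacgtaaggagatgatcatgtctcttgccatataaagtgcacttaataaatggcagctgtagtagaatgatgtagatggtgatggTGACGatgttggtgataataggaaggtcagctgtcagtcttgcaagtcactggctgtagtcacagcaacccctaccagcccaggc
BHLHE40 held an E-box whose first letter lay 245 bases before the start. PER1 held an E-box 173 bases and a D-box 30 bases before its start, CRY2 the TGACG core 85 bases before its start, and NR1D1 none of the motifs. Over the 10 members, all matched in the table, the E-box stood in 2 (PER1, BHLHE40) against 6.34% of 35116 starts. The TGACG core stood in 3 (PER2, CRY1, CRY2) against 21.2%, and the D-box in 2 (PER1, PER3) against 3.03%. The full element TGACGTCA, in 1.65% of starts, and TAGGTCA, in 1.61%, stood in 0 of 10. A match is a run of letters and not a measured site.

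Values are the authors' RPKM, reads per kilobase of gene scaled to the size of the library, for which the length was the whole gene with its introns in most genes. Clock genes with long introns therefore have small values: the length behind the RPKM was 110615 bp for BMAL1 and 6208 bp for BHLHE40. Recovered library totals were 26633780 to 38225538 reads at 30 min and 11956652 to 13691014 at 2 h, and the members had 53 to 5412 reads per library. Replicate 1 of both 30 min groups stood apart. Its chi-square per degree of freedom over genes was 51.1 to 61.1 against the other replicates of its group. The remaining 30 min pairs gave 21.7 (DMSO) and 15.3 (merbarone). The 2 h pairs gave 9.72 (untreated) and 4 (merbarone), in libraries with fewer reads, on which this measure depends. In replicate 1 of both 30 min groups 8 of 10 members, all but CRY1 and BHLHE40, had their lowest value of the group, as did 37.1% of all genes tested. The RPKM is a share of a library, so a change in RNA per cell and a change in the mix of cells cannot be told apart. Of 8 pigment epithelium markers, 4 averaged at least 1 RPKM, and their summed level was 10.2 to 13.9 RPKM in the 30 min libraries and 26.7 to 30.6 in the 2 h libraries. BEST1, which overlaps FTH1 on the opposite strand, made most of that gap (2.58 and 2.48 RPKM on average in the 30 min groups, 18.8 and 18.5 in the 2 h groups). OTX2 was lower after 2 h of merbarone, at 3.38 ± 0.0681 against 4.48 ± 0.182 RPKM (SD, n = 2; limma log2 -0.40, adjusted p = 0.0452), and its part in the results was not tested. RPE65, which defines the mature tissue, averaged at most 0.0509 RPKM in any group. The epithelial markers KRT8 and KRT18 were present. Summed with CDH1, which averaged at most 0.0020, they were at 16.0 to 24.5 RPKM in the 30 min libraries. In the 2 h libraries they were at 62.0 to 76.0 RPKM, so this sum differed between the experiments as well. The leukocyte, endothelial and neuronal lists (3, 2 and 2 genes in the tables) stayed under 0.27 RPKM summed in every library, with CD3E and CDH5 at 0 throughout. Of the photoreceptor markers, RCVRN was at 0 throughout, while NRL was at 0.385 ± 0.00904 RPKM in untreated cells and 1.42 ± 0.343 RPKM after 2 h of merbarone (SD, n = 2; limma log2 1.63, adjusted p = 0.000659). NRL overlaps PCK2 and DCAF11 on the opposite strand, and its part in the results at 2 h was not tested.

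At 30 min no clock gene passed the test. By limma on log2(RPKM + 0.1) with Benjamini-Hochberg adjustment over 11807 genes and a threshold of 0.05, 0 of 10 members were called, 0 had an unadjusted p under 0.05, and each had an adjusted p of 1. The background was 0 of all genes, or 0%, with 56 genes at an unadjusted p under 0.05; limma's voom on recovered reads called 1 gene and 0 members. The members' median log2 fold change was 0.0024 with 5 of 10 above 0, against a median of -0.0035 over all genes. Merbarone and DMSO libraries overlapped in all 10 members, whereas 2.3% of all genes had groups that did not overlap. Same-numbered 30 min libraries varied together, and with the replicate number as a block 1 gene and 0 members were called.

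At 2 h, 4 members rose and 0 fell. PER1, CRY2, NR1D1 and BHLHE40 were called, where the call rate was 9.29% of 11814 genes (633 higher and 464 lower) and 5.36% counting genes called higher. The members were chosen with earlier results of these data known, so their share is not that of a list chosen blind. Of the 10 members, 9 had a positive log2 fold change, DBP being the other, and the median was 0.43 against -0.011 over all genes. In 8 of 10, all but PER3 and DBP, both merbarone libraries lay above both untreated libraries. BMAL1, in both counts, passed the filter of 0.1 RPKM through its merbarone libraries (mean 0.130, against 0.0948 untreated). Such separation was frequent with 2 libraries a group: 58.7% of all genes had groups that did not overlap, and 27.4% had the merbarone libraries higher. Without untreated replicate 1 the count of members called was 7, adding PER2 and NR1D2 higher and DBP lower, and the genes called in all were 3296 against 1097.

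**Figure D1:**
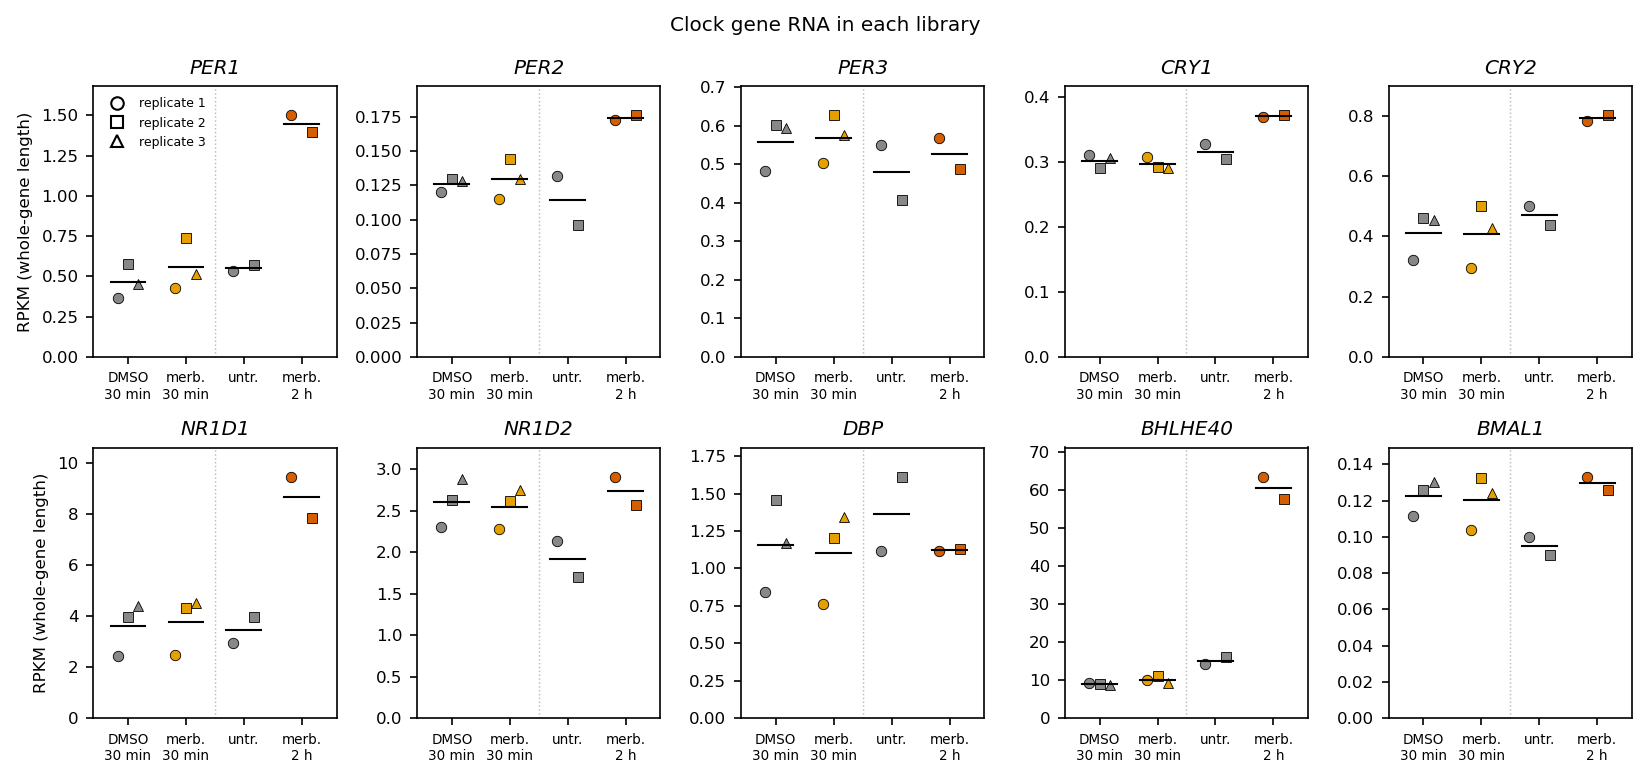
RPKM of each of the 10 clock genes in every library, with a panel per gene, the 4 groups along the x axis, a point per library and a bar at the group mean. BHLHE40, NR1D1, PER1 and CRY2 have both 2 h merbarone libraries above all other libraries, and so do PER2 and CRY1, which were not called. The 30 min groups overlap in each panel, and levels were not tested between the experiments.

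Among the period genes, which encode inhibitors of CLOCK and BMAL1, PER1 alone was called at 2 h. PER1 (ENSG00000179094; GRCh37 chr17:8043790-8059824, minus strand) was at 0.365, 0.575 and 0.452 RPKM in the DMSO libraries and at 0.428, 0.740 and 0.514 RPKM after 30 min of merbarone. It was at 0.533 and 0.568 RPKM in untreated cells and at 1.5 and 1.40 RPKM after 2 h of merbarone. Both 2 h merbarone libraries were the highest of the 10, and the 30 min groups overlapped. The 2 h mean was 0.551 ± 0.0247 RPKM untreated and 1.45 ± 0.0753 RPKM treated (SD, n = 2 each). It was thus 2.63-fold higher, and the log2 fold change was 1.25 ± 0.11 (SE; limma adjusted p = 0.000438). At 30 min the log2 fold change was 0.22 ± 0.21, with merbarone above DMSO in 3 of 3 same-numbered pairs (0.15 to 0.32). Even with the replicate block, limma gave an adjusted p of 0.768. The PER1 interval shares 5691 bp with ENSG00000263620 on the same strand, which also rose at 2 h, from 5.40 ± 0.0790 to 7.22 ± 0.137 RPKM (SD, n = 2; limma log2 0.41, adjusted p = 0.0364). How reads of the shared stretch were assigned is not given in the sources used here. PER1 had 114 and 109 reads untreated and 330 and 292 after 2 h of merbarone. Both its level and its rise at 2 h are thus uncertain by an amount that was not measured.

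PER2 (ENSG00000132326; chr2:239152685-239198743, minus strand), a paralogue of PER1 with the same role, was at 0.132 and 0.0962 RPKM in untreated cells and at 0.173 and 0.176 RPKM after 2 h. The groups did not overlap and the mean was 1.53-fold higher, yet the log2 fold change of 0.36 ± 0.12 did not pass (limma adjusted p = 0.0868). In the 30 min experiment it was at 0.121, 0.129 and 0.128 RPKM with DMSO and at 0.115, 0.144 and 0.129 RPKM with merbarone. PER2 had 53 to 249 reads per library, among them the fewest of any member.

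PER3 (ENSG00000049246; chr1:7844351-7905237, plus strand), the remaining period gene, which is dispensable for rhythms in mice, was at 0.551 and 0.408 RPKM untreated and at 0.569 and 0.488 RPKM after 2 h of merbarone. The groups overlapped, with a log2 fold change of 0.12 ± 0.15 (limma adjusted p = 0.62). At 30 min PER3 was at 0.482, 0.602 and 0.594 RPKM with DMSO and at 0.502, 0.628 and 0.575 RPKM with merbarone. It overlaps UTS2 on the opposite strand over 2095 bp.

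The cryptochromes, partners of the PER proteins and the strongest repressors of CLOCK and BMAL1, differed in whether they passed the test. CRY2 (ENSG00000121671; chr11:45868669-45904799, plus strand) was at 0.500 and 0.437 RPKM untreated and at 0.782 and 0.802 RPKM after 2 h. It was thus 1.69-fold higher, 0.469 ± 0.0446 against 0.792 ± 0.0142 RPKM (SD, n = 2), or by 0.65 ± 0.11 on the log2 scale (SE; limma adjusted p = 0.0127). The 2 h merbarone libraries were again the highest of all 10. At 30 min CRY2 was at 0.320, 0.462 and 0.453 RPKM with DMSO and at 0.293, 0.500 and 0.427 RPKM with merbarone, low in replicate 1 of both groups. The 2 h call was lost with no filter on low values (adjusted p = 0.103) and with all 10 libraries in 1 fit (0.0865).

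CRY1 (ENSG00000008405; chr12:107385142-107487327, minus strand) was at 0.327 and 0.303 RPKM untreated and at 0.368 and 0.372 RPKM after 2 h. Its log2 fold change of 0.18 ± 0.11 did not pass (limma adjusted p = 0.314), although the groups did not overlap. The 6 libraries of the 30 min experiment lay within 0.290 to 0.310 RPKM, the narrowest relative range of any member there. The difference between the CRY1 and CRY2 effects was not tested.

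NR1D1 and NR1D2 are nuclear receptors that bind haem and repress BMAL1. NR1D1 (ENSG00000126368; chr17:38249046-38256842, minus strand) was at 2.94 and 3.97 RPKM untreated and at 9.45 and 7.84 RPKM after 2 h of merbarone. The mean rose 2.5-fold, from 3.45 ± 0.729 to 8.65 ± 1.14 RPKM (SD, n = 2), a log2 difference of 1.31 ± 0.16 (limma adjusted p = 0.00234). With no filter on low values the call was lost (adjusted p = 0.0958). At 30 min NR1D1 was at 2.45, 3.94 and 4.38 RPKM with DMSO and at 2.47, 4.31 and 4.5 RPKM with merbarone. Replicate 1 was the low library in both 30 min groups, and the log2 fold change there was 0.058. NR1D1 overlaps THRA on the opposite strand over 1075 bp, and THRA was at 2.03 ± 0.276 RPKM untreated and 1.60 ± 0.144 RPKM after 2 h (SD, n = 2; limma log2 -0.32, adjusted p = 0.156).

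NR1D2 (ENSG00000174738; chr3:23986777-24022108, plus strand) was at 2.14 and 1.70 RPKM untreated and at 2.91 and 2.56 RPKM after 2 h. The groups did not overlap and the mean was 1.43-fold higher, with a log2 fold change of 0.50 ± 0.13 just outside the threshold (limma adjusted p = 0.055). At 30 min it was at 2.31, 2.62 and 2.88 RPKM with DMSO and at 2.28, 2.62 and 2.75 RPKM with merbarone, so the DMSO libraries of the 30 min experiment lay above the untreated ones. NR1D2 overlaps NKIRAS1 on the opposite strand over 1306 bp.

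BHLHE40, a basic helix-loop-helix repressor that competes for E-boxes and is also known as a gene quickly induced by stress and growth signals, rose most of the members. BHLHE40 (ENSG00000134107; chr3:5021122-5027008, plus strand) was at 14.4 and 16.1 RPKM untreated and at 63.6 and 57.7 RPKM after 2 h. Means were 15.2 ± 1.18 and 60.7 ± 4.23 RPKM (SD, n = 2), 3.99-fold higher after merbarone, a log2 difference of 1.99 ± 0.11 (limma adjusted p = 5.53e-05). At 30 min the values were 9.41, 9.03 and 8.78 RPKM with DMSO and 9.97, 11.03 and 9.21 RPKM with merbarone. Merbarone was the higher in 3 of 3 same-numbered pairs at 30 min, but the groups overlapped and the log2 fold change was 0.14 ± 0.08. Untreated cells held more BHLHE40 than DMSO cells, in separate experiments whose levels were not tested against each other.

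DBP, the D-box activator driven directly by CLOCK and BMAL1, was not called at 2 h. DBP (ENSG00000105516; chr19:49133287-49140636, minus strand) was at 1.11 and 1.61 RPKM untreated and at 1.11 and 1.13 RPKM after 2 h. The groups overlapped, with a log2 fold change of -0.24 ± 0.16 (limma adjusted p = 0.367). This value rests on the untreated libraries: without replicate 1 it was -0.49 and called lower (adjusted p = 0.00811), and without replicate 2 it was 0.0081. At 30 min DBP was at 0.841, 1.46 and 1.17 RPKM with DMSO and at 0.762, 1.2 and 1.34 RPKM with merbarone. DBP overlaps SPHK2 on the opposite strand over 688 bp.

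BMAL1 (ENSG00000133794; chr11:13298199-13408813, plus strand), the activating partner of CLOCK, was at 0.0997 and 0.0899 RPKM untreated and at 0.133 and 0.126 RPKM after 2 h. Both merbarone libraries lay above both untreated ones, by 1.37-fold in the mean, but the log2 fold change of 0.24 ± 0.10 did not pass (limma adjusted p = 0.166). Its untreated mean of 0.0948 RPKM lay under the filter of 0.1, which it passed at 2 h through the merbarone mean of 0.130. These levels are near the pseudocount of 0.1. At 30 min BMAL1 was at 0.111, 0.126 and 0.130 RPKM with DMSO and at 0.104, 0.132 and 0.124 RPKM with merbarone.

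**Figure D2:**
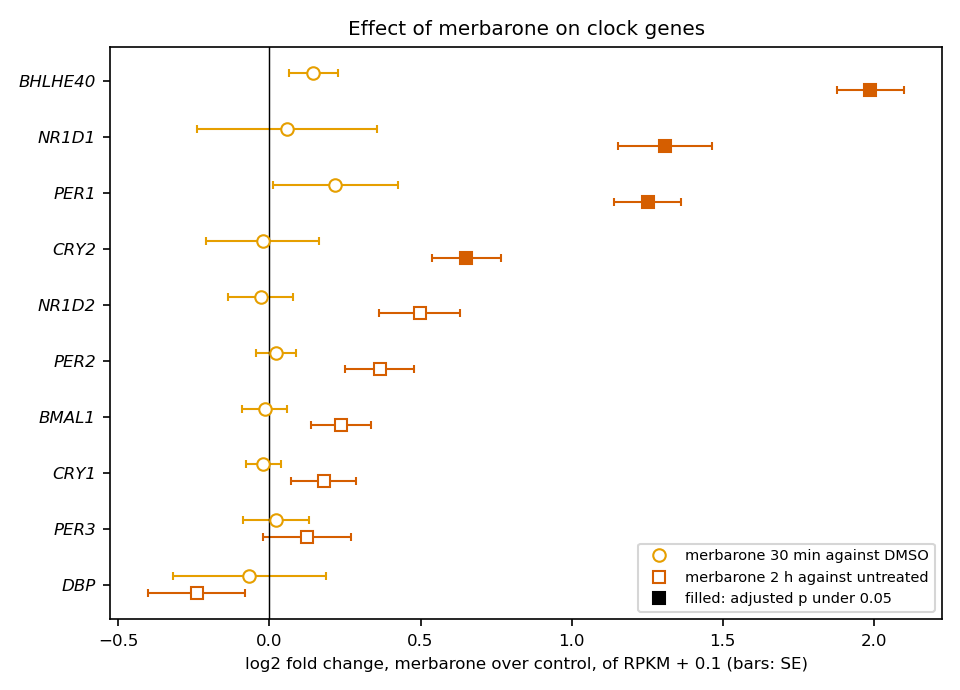
Log2 fold change of merbarone over control on the log2(RPKM + 0.1) scale for the 10 clock genes at 30 min and at 2 h, with error bars of 1 standard error from limma and filled symbols for calls. The 30 min points lie between -0.067 and 0.22, while at 2 h BHLHE40 (1.99), NR1D1 (1.31), PER1 (1.25) and CRY2 (0.65) are called.

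The effects of the 2 experiments were set against each other in 1 contrast over all 10 libraries, in which time, kind of control and experiment cannot be told apart. BHLHE40 was the member whose effect differed, larger at 2 h by 1.84 ± 0.13 on the log2 scale (limma adjusted p = 0.000969). That is 1 of 10 members, against 1.02% of 11874 genes. The differences for NR1D1 (1.25 ± 0.42, adjusted p = 0.226), PER1 (1.03 ± 0.28, 0.14), CRY2 (0.67 ± 0.26, 0.283) and NR1D2 (0.53 ± 0.19, 0.244) did not pass. With the replicate number as a block within each experiment they did, at limma adjusted p of 0.0133, 0.00271, 0.0128 and 0.0124 in the same order. That fit called 5 of 10 members and 13.5% of all genes. The other members differed between the experiments by -0.17 (DBP) to 0.34 (PER2), and 0 of them passed in either fit.

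The rest of the clock was read from a list of 20 genes, of which 19 were in the tables. RORA and RORB, activators that oppose NR1D1 and NR1D2, and HLF, a D-box factor, were among the genes below the filter. At 2 h, 2 of 15 tested rose and 0 fell, with a median log2 fold change of 0.044, where 5.36% of all genes were called higher. NFIL3, a repressor that binds the same D-boxes as DBP, rose from 0.820 ± 0.0430 to 2.49 ± 0.165 RPKM (SD, n = 2), 3.04-fold (limma log2 1.49 ± 0.11, adjusted p = 0.000218). NOCT, a rhythmic phosphatase also called nocturnin, went from 0.398 ± 0.0106 to 0.930 ± 0.0085 RPKM (limma log2 1.05 ± 0.11, adjusted p = 0.000952). BHLHE41, the paralogue of BHLHE40, was at 10.003 ± 1.08 and 14.5 ± 2.52 RPKM and did not pass (limma adjusted p = 0.0539). The activators were called in neither direction at 2 h: CLOCK was at 0.522 and 0.509 RPKM, NPAS2 at 0.301 and 0.286 RPKM, and BMAL2 at 0.922 and 0.821 RPKM in untreated and merbarone cells, with adjusted p of 0.899, 0.788 and 0.554 by limma. The kinases CSNK1D and CSNK1E, which phosphorylate PER proteins, had log2 fold changes of -0.16 and 0.0040. At 30 min 0 of 14 tested genes were called, with a median of -0.017, and NFIL3 was the list's call in the contrast between the effects (1.47, limma adjusted p = 0.00185).

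Target lists of the inputs known for PER1, chosen with earlier results of these data known, were read beside it. Of all 11807 genes tested at 30 min, 5568 had positive log2 fold changes, with a median of -0.0035. By limma 56 had an unadjusted p under 0.05. Of 12 genes linked to CREB, 11 were tested, and at 30 min 10 had positive log2 fold changes with a median of 1.37. Of these, 7 had an unadjusted p under 0.05 by limma but 0 were called. FOS, an immediate-early transcription factor, had the largest, from 0.992 ± 0.595 to 49.9 ± 11.6 RPKM (SD, n = 3; limma log2 5.63, adjusted p = 0.0649), and passed in 9 of 18 alternatives (adjusted p from 0.000192 to 0.775). At 2 h 9 of 11 rose and 0 fell, with a median of 1.97 (all genes: 5.36% called higher, median -0.011): NR4A1, NR4A2, SIK1, FOS, FOSB, JUNB, EGR1, ATF3 and DUSP1. FOSB had the largest change there (0.189 ± 0.0456 to 10.9 ± 0.473 RPKM, SD, n = 2; limma log2 5.26, adjusted p = 4.98e-07), while CREM, a classical CREB target, stayed at 0.139 and 0.138 RPKM (adjusted p = 0.984). Several genes of this list, FOS, EGR1 and JUNB among them, are also known targets of serum response factor.

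Of 8 glucocorticoid targets, 7 were tested and 0 were called at 30 min. At 2 h 4 of 7 rose and 0 fell, with a median log2 fold change of 0.83, against the same 5.36% and -0.011. TSC22D3 (GILZ) rose from 1.51 ± 0.145 to 4.15 ± 0.0938 RPKM (SD, n = 2; limma log2 1.40, adjusted p = 0.000259), and SGK1, ERRFI1 and CEBPD by 0.83 to 1.02 on the log2 scale. FKBP5, a commonly used reporter of glucocorticoid receptor activity, was at 0.364 and 0.330 RPKM (adjusted p = 0.656), and KLF9 and GLUL were not called either.

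**Figure D3:**
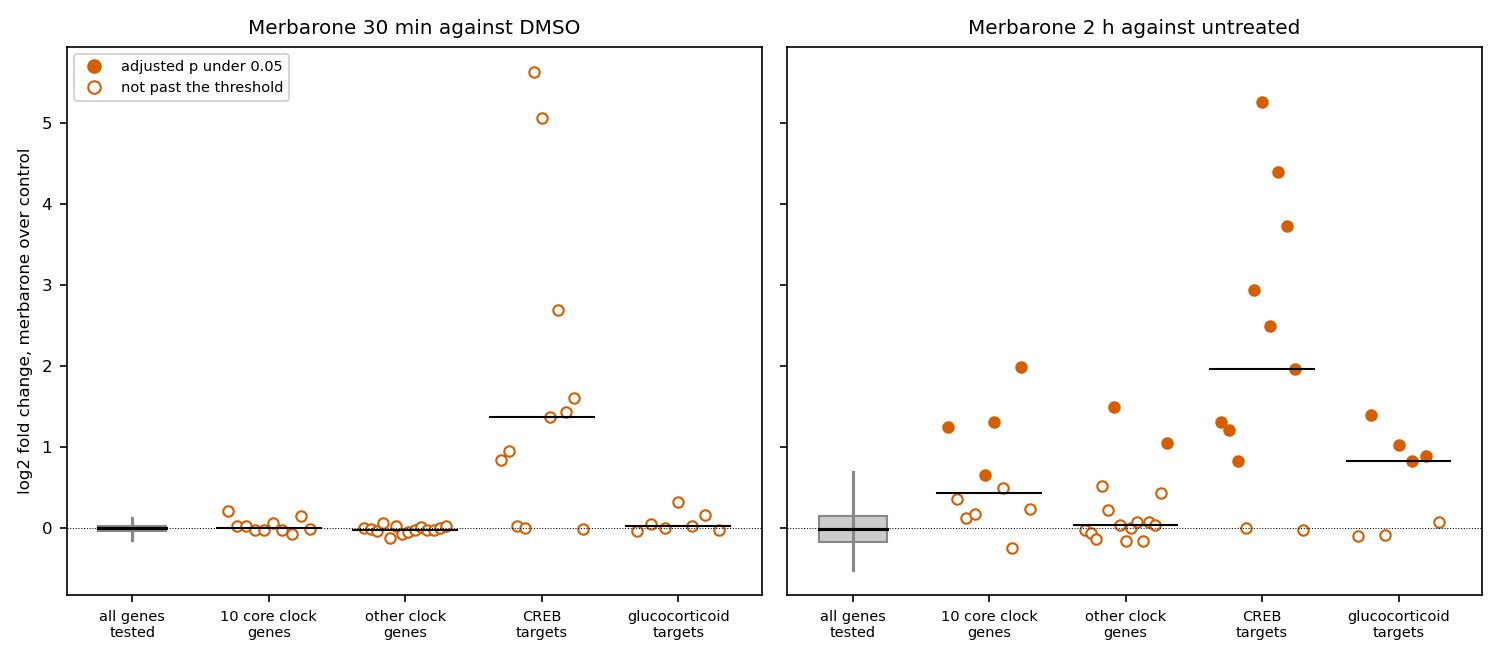
Log2 fold changes of the members, the other clock genes, the CREB-linked genes and the glucocorticoid targets at 30 min and at 2 h, a point per gene tested, a bar at each list's median and filled points for limma calls; the grey box gives the quartiles of all genes tested and its whisker their central 95%. The medians at 2 h are 0.43, 0.044, 1.97 and 0.83 in that order, and no point is filled at 30 min.

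Levels were compared between genes on an exon RPKM, since the deposited lengths hold introns. It is the recovered reads per kilobase of summed exons, scaled to the library total. Whether reads in introns were counted is not given in the sources used here, so genes with long introns may be overstated. Summed exons also hold those of every annotated transcript, 6485 of 7350 bp for DBP and 2630 of 7797 bp for NR1D1. The order between genes is thus uncertain. On this scale BHLHE40 was the most abundant member in untreated cells, at 26.9 ± 2.09 exon RPKM (SD, n = 2). NR1D2 (11.7) and NR1D1 (10.4) followed, with libraries that overlapped, then CRY1 (6.76), PER3 (3.59), CRY2 (2.73), DBP (1.56) and BMAL1 (1.51), the last pair overlapping, PER1 (1.26) and PER2 (0.742). After 2 h of merbarone the order was BHLHE40 (107), NR1D1 (26.1), NR1D2 (16.7), CRY1 (7.93), CRY2 (4.62), PER3 (3.96), PER1 (3.32), BMAL1 (2.07), DBP (1.28) and PER2 (1.14), and neighbours in this order did not overlap. CRY2 thus passed PER3 and PER1 passed DBP, as they did by the deposited RPKM. On the exon scale the untreated libraries of DBP (1.27 to 1.84) and PER1 (1.22 to 1.30) overlapped, so their order there was not separated. On the exon scale NR1D1 also passed NR1D2 and PER1 passed BMAL1, whereas by the deposited RPKM they stood above them in untreated cells already. BMAL1 passed DBP on the exon scale too, but by the deposited RPKM it ranked 10 in both groups. In the DMSO libraries BHLHE40 (16.0) and NR1D2 (15.9) overlapped at the top, and the order in 30 min merbarone was the same but for PER1 above DBP. By the deposited RPKM CRY1 ranked 8 among the members in each group in place of 4.

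**Figure D4:**
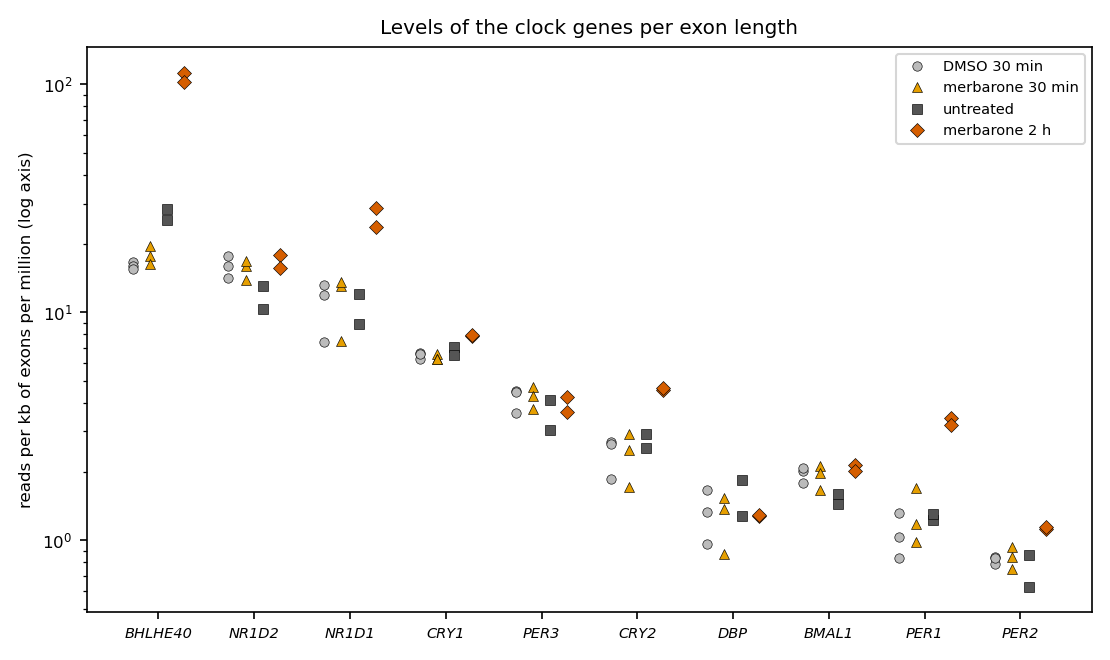
Level of each clock gene as exon RPKM (reads per kilobase of summed exons, scaled to the library total) on a log axis, in the order of the untreated cells, a point per library coloured by group. The BHLHE40 mean is 16.0 in DMSO cells and 17.8 after 30 min of merbarone. It is 26.9 in untreated cells and 107 after 2 h of merbarone. PER2 has the lowest mean in each group.

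The genes whose profile over the 10 libraries lay nearest to a member were found for BHLHE40 and NR1D1, the members with the largest changes at 2 h on the log2(RPKM + 0.1) scale, among 11874 genes. By ratio of means PER1 (2.63) stood above NR1D1 (2.5). Likeness was the root mean square difference of log2(RPKM + 0.1) from the control mean. For BHLHE40 the nearest were ETS2 (0.14), DDIT3 (0.15) and C11orf71 (0.15). ETS2, an ETS-family transcription factor, went from 1.30 ± 0.0743 to 5.81 ± 0.311 RPKM at 2 h, and DDIT3 (CHOP), a factor of the integrated stress response, from 7.90 ± 0.946 to 34.2 ± 3.19 RPKM (SD, n = 2). For NR1D1 they were ID2 (0.12), TNFAIP3 (0.18) and SNAI1 (0.18). ID2, an inhibitor of basic helix-loop-helix factors, went from 0.333 ± 0.0554 to 0.986 ± 0.0225 RPKM at 2 h (SD, n = 2). The points share libraries, depth and controls, and no test was made of these likenesses.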

How the data were processed

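Polyadenylated RNA of 10 libraries was measured. The authors deposited 1 table of RPKM values per library; per the submitters' processing notes, which give no role or order, Bowtie 1.2.0, deepTools 2.4.1, DESeq2 and edgeR were named, with builds hg19 and GRCh37. The annotation and the use of strand in counting are not given in the sources used here, although the kit keeps strand. A gene's RPKM values moved in steps of 1 read, from which whole reads (within 0.01) could be recovered for 100% of the 17680 genes above 0. The lengths they imply lay within 1% of the GRCh37 gene span for 74.9% of 17234 genes and of the summed exons for 1.59%.

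Tests were two-sided, with limma 3.58.1 in R 4.3.3 (lmFit, eBayes with trend) on log2(RPKM + 0.1), a scale that understates the change of low genes. Genes needed a mean of 0.1 RPKM and of 10 recovered reads over the libraries fitted; adjustment was Benjamini-Hochberg over all genes tested at 0.05. Positions are those of a GRCh37 annotation. The pseudocount and filter are 0.1, not 1, because long clock genes lie under 1 RPKM.

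Replicate numbers come from the labels. Deviations of same-numbered 30 min libraries from their group means correlated at 0.888, 0.66 and 0.597 over 11807 genes. The main fits did not use the numbers as pairs, and the replicate block was run as an alternative.

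All members were named; from the other lists, genes called or with the largest change, and other clock genes by level. The 3 nearest profiles were taken for the 2 members with the largest called change at 2 h. Members and lists were chosen with earlier results of these data known. Alternatives were other pseudocounts, filters, scalings and variance models, the replicate block, all libraries in 1 fit, and each library left out. The analysis was tested on simulated data. Some genes of the lists are not reported here.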

Additional observations from a re-analysis of the deposited data

Results flagged for a closer look

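In the limma contrast of the difference itself over 10 libraries, 4 genes of the clock, CREB and glucocorticoid lists were called. Time, kind of control and experiment cannot be told apart in this contrast. The 4 were 1 of 10 members, 1 of 14 other clock genes, 1 of 11 CREB-linked genes and 1 of 7 glucocorticoid targets tested. Over all 11874 genes tested, 121 were called, or 1.02%. The members and lists were chosen with earlier results of these data known. BHLHE40 had a difference of 1.84 on the log2 scale (limma adjusted p = 0.000969), and it passed in 21 of 21 alternatives, at 1.76 to 1.92. NFIL3 had 1.47 (limma adjusted p = 0.00185) and passed in 19 of 19, at 0.93 to 1.59. TSC22D3 had 1.34 (limma adjusted p = 0.0188) and passed in 16 of 21, with adjusted p up to 0.111. ATF3, a stress-induced transcription factor, had 2.30 (limma adjusted p = 0.0338) and passed in 10 of 19, with adjusted p up to 0.323.

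The same contrast passed for the photoreceptor marker NRL (1.58, limma adjusted p = 0.00465) and for 4 genes with profiles near those of BHLHE40 or NR1D1. These were ETS2 (2.05, 0.000299), DDIT3 (2.06, 0.00211), C11orf71 (1.62, 0.00673) and TNFAIP3 (1.46, 0.0348), for which no alternatives were run. The 4 were picked for their likeness to a member over the same libraries, so their passing is not separate evidence.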

How the results depend on the processing

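A planned quasi-likelihood count test on recovered reads was not run. BHLHE40 and PER1 were called at 2 h under all 16 alternatives run. None of these separated the reads of PER1 from those of ENSG00000263620, which overlaps it. With no filter 2 members were called at 2 h (PER1, BHLHE40) and with all 10 libraries in 1 fit 3; voom with the replicate block called 7. Leaving out 1 library in turn gave 4 to 7 members, the 7 without untreated replicate 1. The 15 genes of the other clock, CREB and glucocorticoid lists called at 2 h each passed in all but at most 2 of their 14 or 16 alternatives. Members called at 30 min were 0 under every alternative run.

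Genes called at 30 min, 0 as reported, were 1 with a pseudocount of 1 (with either filter), quantile normalization, median scaling, voom, no filter, a filter at 1 RPKM or the replicate block, 2 with all 10 libraries in 1 fit and 13 by voom with the block; leaving out 1 library gave 0 to 1. Genes called at 2 h, 1097 as reported, were 87 with no filter (80 higher, 7 lower), 848 with a filter at 1 RPKM (388 higher, 460 lower, against 633 and 464 as reported) and 2074 by voom; leaving out 1 library gave 609 to 3296, with 3296 and 1703 without untreated replicate 1 and 2, and 609 and 694 without merbarone replicate 1 and 2. Genes called in the difference, 121 as reported, were 197 with a pseudocount of 1, 241 with no filter and 69 by voom, and 33 to 95 when 1 library was left out.

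The labels give the 2 h libraries no link but a number. Deviations of same-numbered libraries correlated at 0.235 over 11814 genes. With 2 libraries a group both pairs must give the same value, so it counts once. With the replicate block the 2 h genes called were 2818, or 3515 by voom, and the members 6, adding PER2 (adjusted p = 0.0171) and NR1D2 (0.00104). In the difference the block gave 1606 genes and 5 members, or 2121 genes and 6 members by voom. It changed no call of a member at 30 min.

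Directions turned only in fits that left out 1 library. Log2 fold changes at 30 min then ran from -0.024 to 0.066 for PER2, -0.067 to 0.094 for PER3, -0.16 to 0.15 for CRY2, -0.19 to 0.33 for NR1D1, -0.11 to 0.047 for NR1D2, -0.26 to 0.16 for DBP and -0.057 to 0.038 for BMAL1. At 2 h they ran from -0.055 to 0.30 for PER3 and -0.49 to 0.0081 for DBP, and in the difference from -0.076 to 0.28 for PER3 and -0.42 to 0.075 for DBP. Where a left-out library leaves 1 in its group, that library is assumed to vary like the other group. Causes were not tested. PER2 had as few as 53 reads in a library.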
